A study of Chlorocebus aethiops with 36 samples.

Results

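The change in liver gene expression from baseline to week 12 was compared between African green monkeys given anti-miR-33 and animals given a control anti-miR. Of the 36 arrays of the study, 24 entered this comparison, namely the baseline and week 12 arrays of 12 male animals, 6 in each arm. They were chosen by their titles and paired by the animal identifier in the labels. Baseline titles do not give the arm, which was read from the week 12 title of that animal. Baseline was week -5, when the animals were untreated and ate normal chow. The oligonucleotide was injected under the skin at 5 mg/kg for 12 weeks, and a diet high in carbohydrate with moderate cholesterol replaced chow for the last 8 weeks, in both arms. Treatment, diet and time therefore changed together between the 2 arrays of an animal, and only what differed between the arms can be set beside the oligonucleotide. RNA was measured on a human array (HG-U133 Plus 2.0), on which a probe that mismatches the monkey transcript reads low in both arms.

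An anti-miR is a chemically modified oligonucleotide that pairs with a mature microRNA and keeps it from its targets. The gene of miR-33 lies in introns of the SREBF genes, which encode the transcription factors of sterol and fatty acid synthesis, and it represses transcripts through sites in their 3′ ends. Its known targets include ABCA1, which loads cholesterol onto apolipoprotein A-I, and CROT, CPT1A and HADHB, which act in fatty acid oxidation. In the liver, blocking miR-33 is known to raise such targets. Interferon-stimulated genes such as OASL are antiviral effectors that most liver cell types can switch on.

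No gene passed the test of the difference in change, so the values that follow describe 12 animals and no named difference was called. Limma called 0 of 13634 genes at an adjusted p under 0.05 (0%), and the smallest adjusted p was 0.999. At an unadjusted p under 0.05 there were 148 genes with a higher change under anti-miR-33 (1.09%) and 151 with a lower change (1.11%). These 299 genes are fewer than the 681.7 that the threshold would give by chance. The difference in change had a median of 0.01 on the log2 scale over all genes, was above 0 in 51.7% of them, and lay between -0.20 and 0.23 for all but the outer 5% on each side. A typical standard error (SE) was 0.13, so a difference of 2 SE corresponded to 1.21-fold. The changes of the arms did not overlap at all in 4 genes with anti-miR-33 above (0.0293%) and 6 with anti-miR-33 below (0.044%).

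The arrays were alike in their overall level, and 1 of the 24 stood apart. The highest value on the week 12 array of control animal 5 was 13.8 on the log2 scale, where the other 23 reached 14.99 to 15.06. Its mean over 17 hepatocyte markers was 11.4, against 11.8 to 12.1 on the other arrays. Values without it are given below where it moved a result by over 1.5 times. RNA integrity was read from GAPDH and ACTB, as the excess of their 3′ over their 5′ control probe sets. A fall in this value is a smaller 3′ excess, not a loss of integrity. The value changed by -0.59 ± 0.36 in control animals and by -0.89 ± 0.55 in anti-miR-33 animals (log2 scale, SD, n = 6 each). The difference of -0.30 had a two-sided exact permutation p of 0.316, where 6 against 6 animals can give 0.00216 at the lowest. Its part in the gene results was not tested beyond a fit that carried it as a covariate, which also called 0 genes.

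CROT, the peroxisomal carnitine octanoyltransferase that hands medium-chain acyl groups from peroxisomes to mitochondria, was the miR-33 target with the smallest p. Its level in control animals ran from 8.05 through a median of 8.32 to 8.71 at baseline, and from 8.08 through 8.28 to 8.63 at week 12. In anti-miR-33 animals it ran from 8.12 through 8.20 to 8.40 at baseline, and from 8.26 through 8.71 to 9.02 at week 12. The within-animal change was -0.27 at the lowest, -0.03 at the median and 0.24 at the highest in control animals, and 0.09, 0.49 and 0.62 under anti-miR-33. All 6 anti-miR-33 animals and 3 of 6 control animals had more CROT at week 12 than at baseline, and only anti-miR-33 animal 4, at 0.09, lay within the control range. The difference in change was 0.43 ± 0.14 (SE), or 1.35-fold, with a 95% interval of 0.15 to 0.71 on the log2 scale. In limma its unadjusted p was 0.00368 and its adjusted p 0.999, and it ranked 13 by p among the 13634 genes. The arms differed by -0.08 at baseline and by 0.35 at week 12, so little of the difference came from the starting level. Between these times, at week 4, they differed by 0.23. The other probe sets of CROT lay below the filter on dim signals, with differences in change of 0.08 and -0.00.

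**Figure D1:**
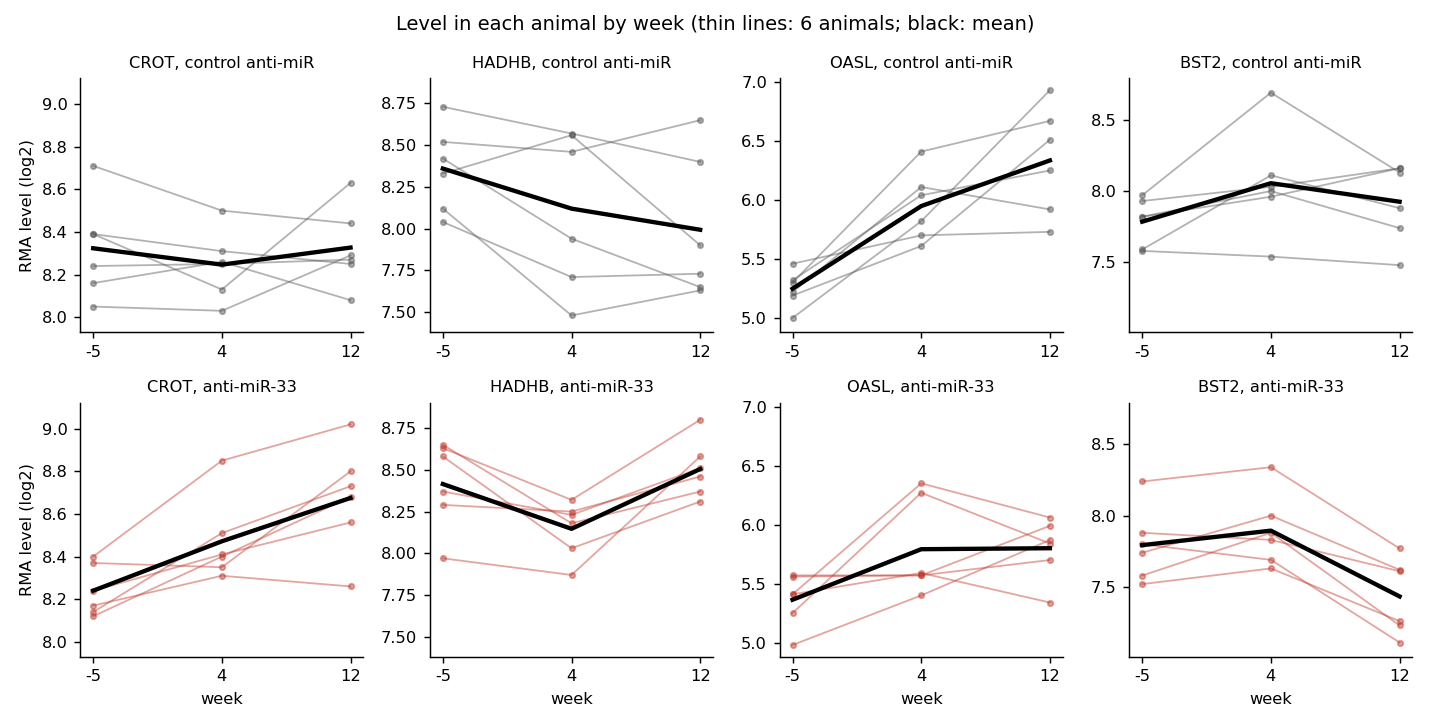
RMA level on the log2 scale (vertical axis) at weeks -5, 4 and 12 for CROT, HADHB, OASL and BST2, with control animals in the upper row and anti-miR-33 animals in the lower row. Thin lines are the 6 animals of an arm and the black line is their mean. The CROT mean is 8.24 at baseline and 8.68 at week 12 under anti-miR-33, while OASL goes from 5.25 to 6.34 in control animals and from 5.36 to 5.80 under anti-miR-33.

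HADHB, the beta subunit of the mitochondrial trifunctional protein that carries out the last steps of long-chain beta-oxidation, had a similar difference from an opposite movement. In control animals its change was -0.77 at the lowest, -0.38 at the median and 0.13 at the highest, and 1 of 6 animals had more at week 12. Under anti-miR-33 the change was -0.28, 0.15 and 0.61, with more at week 12 in 4 of 6, so the arms overlapped between -0.28 and 0.13. The difference was 0.46 ± 0.21 (SE), and limma gave an unadjusted p of 0.0366 and an adjusted p of 0.999. At week 4 the arms differed by 0.03 and at week 12 by 0.51, unlike CROT, for which the mean difference was already 0.23 at week 4.

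ABCA1 had a wide spread in both arms. Its change ran from -0.21 through 0.29 to 1.05 in control animals and from -0.13 through 0.57 to 1.45 under anti-miR-33. In each arm 5 of 6 animals had more at week 12, and the ranges overlapped almost fully. The difference in change was 0.29 ± 0.22 (SE), about 1 SE above 0, while at week 4 the arms differed by 0.55. It was 0.15 without anti-miR-33 animal 5 and 0.46 without animal 1 of the same arm. The mean change in control animals, who received no anti-miR-33, was 0.41 ± 0.47 (SD, n = 6), against 0.70 ± 0.61 (SD, n = 6) under anti-miR-33.

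The listed miR-33 targets as a group lay close to all genes. Of 24 targets 23 were tested, and 12 had a difference above 0 and 11 below, with a median of 0.01, the same as over all genes. Those with an unadjusted p under 0.05 were CROT and HADHB, both higher (1.09% over all genes), and none was lower (1.11% over all genes). Further members of small p were CDK6, a cell cycle kinase, at 0.30 ± 0.19 (SE), and NPC1, which moves cholesterol out of lysosomes, at -0.19 ± 0.14 (SE), which was -0.12 without control animal 4. CPT1A, which brings long-chain fatty acids into mitochondria, was at 0.10 ± 0.48 (SE), and its change spanned -1.39 to 1.30 under anti-miR-33. The median of the list was -0.05 without anti-miR-33 animal 1 and -0.02 after quantile normalization. CYP7A1, the rate-limiting enzyme of bile acid synthesis, lay below the filter.

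Genes of fatty acid oxidation were more often above 0 than below. Of 36 listed genes 31 were tested, and 21 had a difference above 0, with a median of 0.08 against 0.01 over all genes. There were 3 with an unadjusted p under 0.05, namely HADHB, CROT and ETFA, all higher (1.09% over all genes). HADHB and CROT are also in the list of miR-33 targets. ETFA, which passes electrons from acyl-CoA dehydrogenases to the respiratory chain, changed by -0.10 at the lowest, 0.04 at the median and 0.26 at the highest in control animals and by -0.10, 0.42 and 0.66 under anti-miR-33. Its difference was 0.29 ± 0.13 (SE), and the arms overlapped up to 0.26. The arms differed in ETFA by -0.16 at baseline and by 0.13 at week 12. DECR1, needed for unsaturated fatty acids, was at 0.23 ± 0.12 (SE). By role, 4 of 5 genes of carnitine entry, 10 of 15 of mitochondrial beta-oxidation and 5 of 7 of peroxisomal oxidation were above 0. Of 3 tested regulators only 1 was above 0, and their median was -0.07. The regulator above 0 was PPARA, the nuclear receptor that drives this pathway. PPARA was at 0.17 ± 0.17 (SE), and at 0.10 to 0.31 when single animals were left out.

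The list's median change was below 0 in both arms, at -0.14 over genes in control animals and -0.11 under anti-miR-33. Its value per animal ran from -0.47 through -0.18 to 0.23 in control animals and from -0.28 through -0.10 to 0.15 under anti-miR-33, and the arms overlapped over nearly their whole ranges. The lowest of all 12 values was that of control animal 5, whose week 12 array stood apart. Without this animal the median difference was -0.03, without only its week 12 array -0.01, and without control animal 2, the highest control value, 0.17. Over genes, the arms had a median gap of -0.017 at baseline, -0.125 at week 4 and 0.095 at week 12. By this median the list lay lower under anti-miR-33 at week 4 and higher at week 12.

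**Figure D2:**
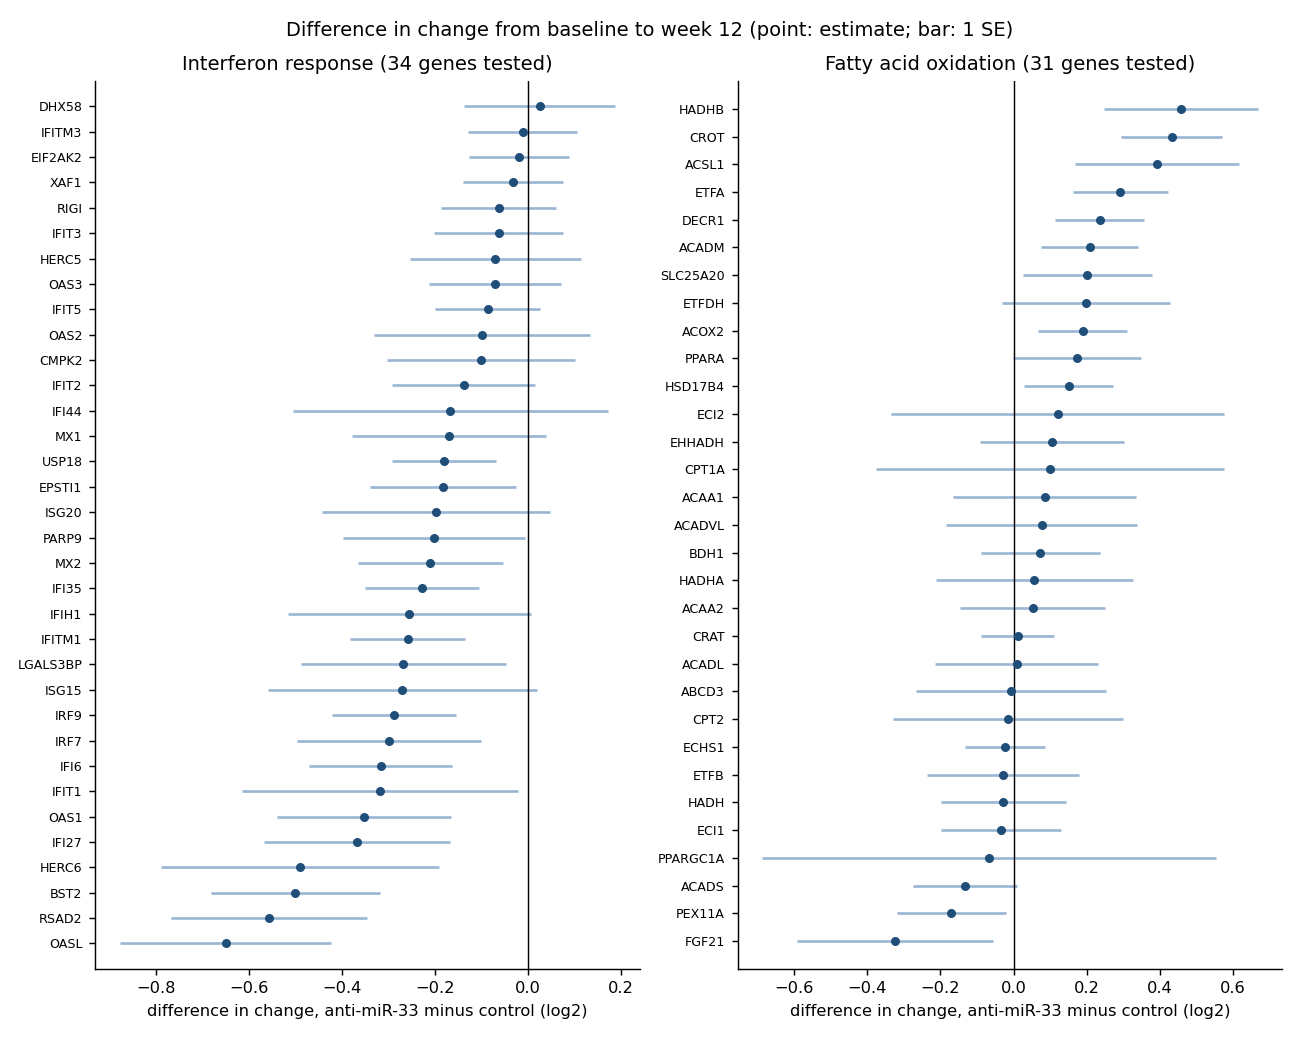
Difference in change from baseline to week 12, anti-miR-33 minus control on the log2 scale (horizontal axis), for each tested gene of the interferon response (left, 34 genes) and of fatty acid oxidation (right, 31 genes). Points are estimates and bars 1 SE from limma. On the left 33 of 34 points lie below 0 with OASL lowest at -0.65, and on the right 21 of 31 lie above 0 with HADHB highest at 0.46.

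OASL, which helps the RNA sensor RIG-I detect viral RNA, stood lowest among the interferon-stimulated genes. Its level at baseline ran from 5.00 through 5.26 to 5.46 in control animals and from 4.98 through 5.41 to 5.57 in the animals later given anti-miR-33. At week 12 it ran from 5.73 through 6.38 to 6.93 in control animals and from 5.34 through 5.86 to 6.06 under anti-miR-33. The change was 0.27, 1.12 and 1.93 (lowest, median, highest) in control animals, positive in 6 of 6, and -0.07, 0.51 and 0.89 under anti-miR-33, positive in 5 of 6. Both arms thus had more OASL at week 12 in nearly every animal, with a larger mean change in control animals, and the ranges overlapped from 0.27 to 0.89. The difference was -0.65 ± 0.23 (SE), or 0.637-fold, with a 95% interval of -1.11 to -0.19. Limma gave an unadjusted p of 0.00704 and an adjusted p of 0.999, and it ranked 29 by p. A dimmer probe set of OASL, also above the filter, had a difference of -0.16 ± 0.15 (SE), under 50% of this value.

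BST2, or tetherin, which holds budding virus particles at the cell surface, was the interferon-stimulated gene without overlap between the arms. Its change was -0.10, 0.20 and 0.34 (lowest, median, highest) in control animals and -0.69, -0.31 and -0.12 under anti-miR-33. In control animals 4 of 6 had more BST2 at week 12, and under anti-miR-33 0 of 6 did. The difference was -0.50 ± 0.18 (SE), with an unadjusted limma p of 0.00896 and an adjusted p of 0.999. The arms stood 0.01 apart before treatment, and the gap was -0.16 at week 4 and -0.49 at week 12.

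RSAD2, or viperin, which makes a chain-terminating nucleotide, changed by 0.33, 1.01 and 1.74 (lowest, median, highest) in control animals and by 0.11, 0.51 and 0.61 under anti-miR-33. It was higher at week 12 in all 12 animals, and the difference was -0.56 ± 0.21 (SE). IRF9, the DNA-binding part of the ISGF3 complex that carries the type I interferon signal, had a difference of -0.29 ± 0.13 (SE), with a positive change in 6 of 6 control animals and 3 of 6 anti-miR-33 animals, and was at -0.17 without control animal 4. The membrane proteins IFI6 and IFITM1 were at -0.32 and -0.26.

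Across the interferon list the sign was nearly uniform, though small. Of 40 listed genes 34 were tested, 33 had a difference below 0, and the median was -0.20 against 0.01 over all genes. Of these, 6 had an unadjusted p under 0.05 and a lower change (OASL, BST2, RSAD2, IRF9, IFITM1 and IFI6), none had a higher one, and BST2 was the member without overlap. Over all genes these shares were 1.11% lower, 1.09% higher and 0.044% below without overlap. The exception in sign was DHX58, a regulator of RNA sensing, at 0.03 ± 0.16 (SE). All 4 genes of the OAS family, all 4 of the IFIT family and all 18 tested other effectors were below 0, and so were 2 of 3 sensors and all 5 genes of signalling and feedback. Interferon-stimulated genes share their regulators, so these members are not independent of each other.

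The interferon list's median was above its baseline value in every animal. In control animals it changed by 0.23 at the lowest, 0.42 at the median and 0.66 at the highest, and under anti-miR-33 by 0.13, 0.26 and 0.42. In control animals 34 of 34 genes had a mean change above 0, and under anti-miR-33 30 of 34. The per-animal values overlapped from 0.23 to 0.42, where control animals 2 and 6 were the lowest control values and anti-miR-33 animal 3 the highest in its arm. Over genes, the arms had a median gap of 0.01 before treatment, -0.13 at week 4 and -0.17 at week 12. Leaving out single animals gave -0.26 to -0.14.

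A second immune list, of interferon gamma targets and antigen presentation, lay on the same side. Of 16 tested genes 14 were below 0, with a median of -0.32, which came to -0.15 without control animal 1. TAP1, which pumps peptides into the endoplasmic reticulum for MHC class I, had a difference of -0.33 ± 0.16 (SE). It was the only member with an unadjusted p under 0.05, with a lower change (1.11% over all genes). Without control animal 1 it was at -0.21. CD74, the invariant chain of MHC class II, was at -0.42 ± 0.22 (SE), and a second probe set of it at -0.04 ± 0.12 (SE). PSMB9, an immunoproteasome subunit, was at -0.49 ± 0.28 (SE) and at -0.24 without control animal 1, whose change of 2.34 was the highest. NLRC5, the transactivator of MHC class I genes, was outside the lists and had the second smallest p among lower genes. It changed by 0.39, 0.47 and 0.90 (lowest, median, highest) in control animals and by -0.19, 0.02 and 0.40 under anti-miR-33, an overlap between 0.39 and 0.40. Its difference was -0.53 ± 0.15 (SE), with an unadjusted limma p of 0.00143 and an adjusted p of 0.999.

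Macrophage markers lay lower beside these immune genes, with 11 of 13 below 0 and a median of -0.14. Their mean level ran from 6.74 to 7.06 in control animals and from 6.54 to 7.12 under anti-miR-33 at week 12, and no member had an unadjusted p under 0.05. C1QB, a complement component made by Kupffer cells, the macrophages of the liver, was at -0.41 ± 0.23 (SE). Lymphocyte markers had 9 of 12 members below 0 and a median of -0.08, which was -0.02 without control animal 4. CD8B, a chain of the T cell co-receptor, was outside this list and named for its small p. It was at -0.37 ± 0.12 (SE) after a difference of 0.21 at baseline, with another probe set at 0.02 ± 0.14 (SE). The part of these cells in the interferon values was not tested, and in whole liver tissue fewer cells of a type and less RNA per cell cannot be told apart.

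**Figure D3:**
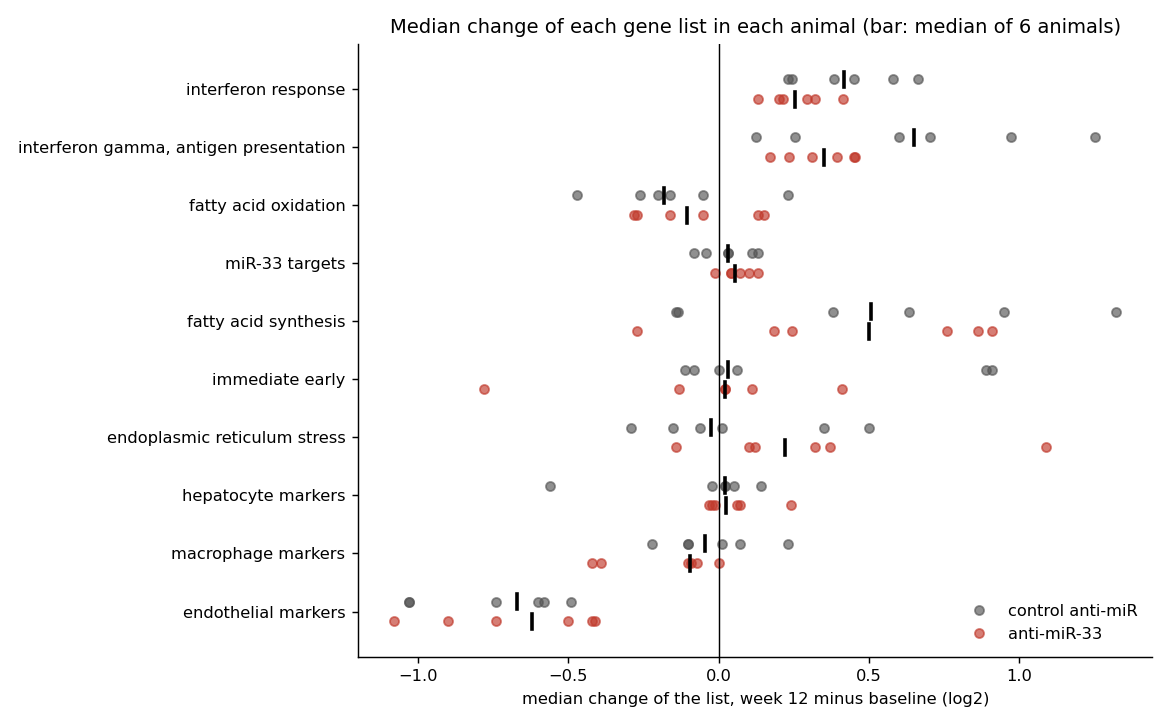
Median change from baseline to week 12 on the log2 scale (horizontal axis) over the tested genes of 10 lists, for each animal. Grey points are the 6 control animals, red points the 6 anti-miR-33 animals, and black bars the median of each arm. The interferon medians are above 0 in all 12 animals, from 0.23 to 0.66 in control and from 0.13 to 0.42 in anti-miR-33 animals, and the endothelial medians are below 0 in all 12.

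Genes of fatty acid synthesis were higher at week 12 than at baseline in most animals of both arms, and the arms differed little. The per-animal median change ran from -0.14 through 0.51 to 1.32 in control animals and from -0.27 through 0.50 to 0.91 under anti-miR-33. Of 14 tested genes 3 had a difference above 0, the median was -0.07, and none had an unadjusted p under 0.05. Without anti-miR-33 animal 1 the median was 0.05, without control animal 6 -0.19, and with the RNA integrity value as a covariate -0.18. SREBF1, the host gene of miR-33b and the main driver of this pathway, changed by -0.01, 1.94 and 3.23 (lowest, median, highest) in control animals and by -1.10, 0.91 and 2.58 under anti-miR-33. Its difference of -0.74 ± 0.55 (SE) was within the spread of the animals, and a dimmer probe set gave -0.09 ± 0.11 (SE). It was -0.34 without anti-miR-33 animal 1. FASN, the fatty acid synthase, was at -0.07 ± 0.89 (SE), with changes from -1.90 to 4.44 under anti-miR-33 alone. ACLY, which makes cytosolic acetyl-CoA, was at -0.55 ± 0.35 (SE), with dimmer probe sets at -0.22 and -0.26.

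Sterol and bile acid genes showed few differences of any size. Of 17 tested genes of cholesterol synthesis 7 were above 0, with a median of -0.00, which was -0.14 without control animal 6 and 0.03 without control animal 4, and none had an unadjusted p under 0.05. SREBF2, the host gene of miR-33a, was at -0.02 ± 0.10 (SE). Of 11 genes of sterol export and liver X receptor targets 5 were above 0, with a median of -0.00, or -0.05 without the week 12 array of control animal 5. Of 11 genes of bile acid synthesis and transport 7 were above 0, with a median of 0.03 that was -0.05 without control animal 5 and -0.08 without its week 12 array. NR0B2, the small heterodimer partner that bile acids induce to shut down their own synthesis, was higher at week 12 in 5 of 6 control and 6 of 6 anti-miR-33 animals. Its change was -0.06, 1.59 and 2.39 (lowest, median, highest) in control animals and 0.17, 0.80 and 1.05 under anti-miR-33, and the difference was -0.61 ± 0.30 (SE). The lowest value in the control arm was that of animal 5. The difference was -0.90 without this animal, -0.79 without only its week 12 array, and -0.41 without control animal 2.

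Immediate early genes, which switch on within minutes of a stimulus, had 16 of 17 members below 0 and a median of -0.27. That median was -0.02 without anti-miR-33 animal 6. FOS, a subunit of the AP-1 factor, had the largest difference of all tested genes in absolute size, at -1.67 ± 0.79 (SE). Its change was 3.43 and 3.92 in control animals 2 and 6 and between -0.40 and 1.41 in the other 4, and under anti-miR-33 it ran from -2.17 through -0.40 to 2.66. The arms had differed by 0.71 at baseline. GADD45B, a stress sensor, was at -0.95 ± 0.37 (SE), with a baseline difference of 0.54 and other probe sets at -1.04, -0.62 and -0.16.

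Genes of the endoplasmic reticulum stress response had 13 of 15 members above 0 and a median of 0.08, which was 0.00 without anti-miR-33 animal 4 and 0.03 without the week 12 array of control animal 5. HSPA5, the main chaperone of the endoplasmic reticulum, was at 0.64 ± 0.37 (SE), and its change was 1.93 in that animal against -0.32 to 0.96 in the other 5 of its arm. Without that animal HSPA5 was at 0.39. Acute phase genes had 12 of 14 members above 0 and a median of 0.09, which was -0.01 without anti-miR-33 animal 4, 0.04 without the control array and 0.02 after quantile normalization. Oxidative phosphorylation had 16 of 20 above 0 and a median of 0.09. That median was 0.05 without anti-miR-33 animal 6, 0.06 without the week 12 array of control animal 5, and 0.04 with the RNA integrity value as a covariate. Its 1 gene with an unadjusted p under 0.05 was NDUFV2 of complex I, with a higher change (1.09% over all genes). NDUFV2 was at 0.37 ± 0.15 (SE) after a baseline difference of -0.22. Cell cycle genes had 8 of 12 below 0 and a median of -0.14, which was -0.08 without anti-miR-33 animal 3 and -0.04 without the week 12 array of control animal 5. The replication helicase subunit MCM2 was at -0.27 ± 0.12 (SE).

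The markers of the liver's cell types gave small differences. All 17 hepatocyte markers tested were above 0, with a median of 0.11, which was 0.02 without control animal 5 and 0.01 without its week 12 array. Their mean level lay between 11.4 and 12.1 on all 24 arrays, so the labelled tissue carried its defining transcripts. Endothelial markers had 11 of 15 above 0 and a median of 0.14, which was 0.03 without anti-miR-33 animal 5. EMCN, an endothelial surface sialomucin, was at 0.33 ± 0.16 (SE). STAB1 and STAB2 were at 0.22 and 0.25, while PECAM1 went the other way, at -0.25 ± 0.18 (SE). The median change over the endothelial markers was -0.80 in control animals and -0.74 under anti-miR-33, so both arms had lower values at week 12. Over these markers the arms had a median gap of -0.15 at baseline and -0.10 at week 12. At week 12, 3 of 15 were higher under anti-miR-33. Stellate cell and matrix markers had 8 of 12 below 0 and a median of -0.05, which was 0.00 without anti-miR-33 animal 3 and -0.03 without the week 12 array of control animal 5. COL1A1, a chain of type I collagen, was at -1.18 ± 0.57 (SE) after a baseline difference of 0.86, and the arms differed by -0.32 at week 12. Its other probe sets above the filter gave -0.84 ± 0.46, -0.13 ± 0.11 and 0.08 ± 0.11 (SE). Cholangiocyte markers had 5 of 7 above 0 and a median of 0.05, which was 0.01 without anti-miR-33 animal 3 and 0.15 without control animal 6. Neutrophil and red cell markers had 4 of 5 above 0 and a median of 0.14, which was -0.05 without anti-miR-33 animal 4.

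KIT, the stem cell factor receptor of mast and progenitor cells, showed how a difference in change can come from the starting level. It ran from 6.47 through 6.94 to 7.76 at baseline in control animals and from 5.42 through 6.00 to 6.61 in the other arm. At week 12 it ran from 4.65 through 5.46 to 5.81 and from 4.86 through 5.38 to 5.82. All 12 animals had less KIT at week 12. The difference in change of 0.96 ± 0.26 (SE) was made of -0.94 at baseline and 0.02 at week 12. Limma gave KIT an unadjusted p of 0.000804 and an adjusted p of 0.999. SNRPF-DT, a divergent transcript that had the smallest p of all, was similar, at -0.40 ± 0.11 (SE) with 0.34 at baseline and -0.07 at week 12.

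A baseline difference of opposite sign was common among genes of small p. Of the 299 genes with an unadjusted p under 0.05, 96.7% had a baseline difference of the sign opposite to their difference in change, and it made up a median of 55.3% of it. Over all genes tested 73.5% had one, since the baseline value is subtracted. In 88 of the 299 the baseline difference itself had an unadjusted p under 0.05, as had 531 of all 13634 genes. In 129 of the 299 (43.1%) the arms differed more at week 12 than at baseline in absolute size, close to the 44.8% of all genes. CROT, HADHB, OASL, BST2, NLRC5, PIN4 and ATP2B2 were among those whose difference came mainly from week 12.

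**Figure D4:**
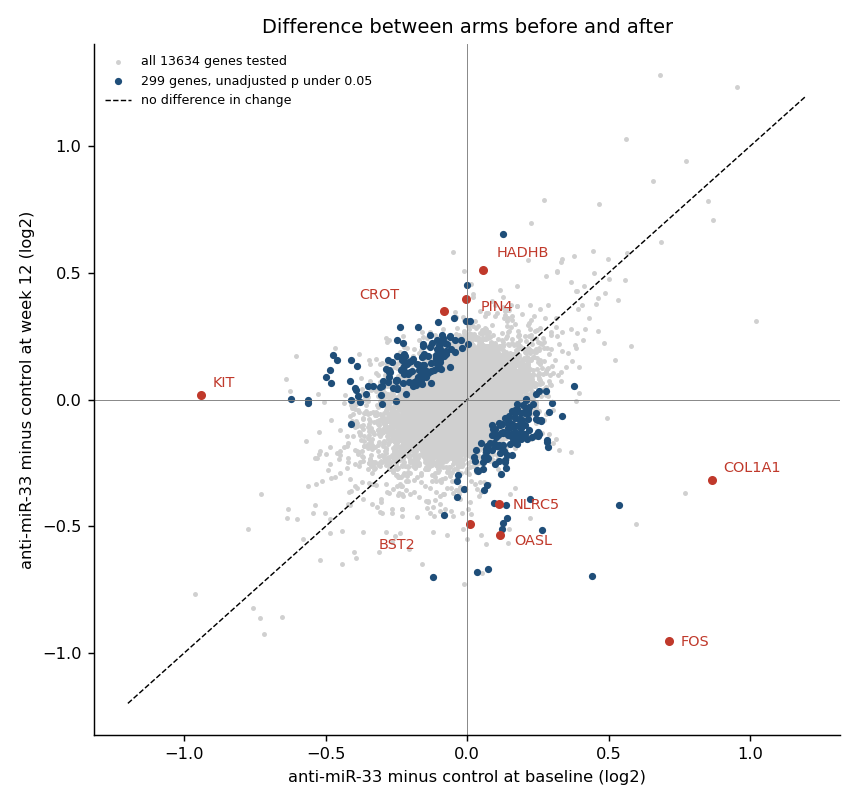
Difference between the arms, anti-miR-33 minus control on the log2 scale, at baseline (horizontal axis) and at week 12 (vertical axis) for the 13634 genes tested (grey) and the 299 with an unadjusted p under 0.05 for the difference in change (blue), with named genes in red. The dashed line marks no difference in change. KIT lies at -0.94 and 0.02, so its difference was present before treatment, while CROT at -0.08 and 0.35 and BST2 at 0.01 and -0.49 lie near 0 at baseline.

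PIN4, a parvulin-type prolyl isomerase, was measured by 2 bright probe sets. Its change was -0.71, -0.58 and -0.36 (lowest, median, highest) in control animals and -0.55, -0.10 and -0.04 under anti-miR-33, with anti-miR-33 animal 4 alone in the control range. The difference was 0.40 ± 0.11 (SE), and the other bright probe set gave 0.41 ± 0.11 (SE) and a dim one 0.08 ± 0.11 (SE). Limma gave an unadjusted p of 0.000993 and an adjusted p of 0.999. ATP2B2, a calcium pump of the plasma membrane, did not overlap between the arms and was at 0.45 ± 0.14 (SE), but its other probe sets, all dimmer, lay between -0.14 and 0.05. APOA4, an apolipoprotein of triglyceride-rich particles, was at -0.63 ± 0.21 (SE), with 5 of 6 control animals and 0 of 6 anti-miR-33 animals above their baseline.

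The other genes of smallest p with a higher change were PPP3CC, a catalytic subunit of calcineurin, at 0.39 (other probe sets at 0.08 and 0.03), the non-coding RNA LINC00841 at 0.39, PJA1, a ubiquitin ligase, at 0.35, and SLC25A24, a mitochondrial carrier of ATP-Mg and phosphate, at 0.38. Those with a lower change were POLE, the catalytic subunit of DNA polymerase epsilon, at -0.32, KRTAP4-11, a hair keratin-associated protein, at -0.45, FBLN1, an extracellular matrix protein, at -0.39 (other probe sets above the filter at -0.20 to 0.02), and CST4, a cystatin, at -0.33. The arms differed in the opposite direction at baseline in each of these 8 genes, by 0.13 to 0.28 in absolute size. The genes without overlap were ATP2B2, PJA1, FHL2 and ATP6V0E1 above and POLE, FBLN1, BST2, TNFRSF25, MFGE8 and LOC101928985 below. ATP6V0E1 and LOC101928985 had differences of 0.19 and -0.20 and unadjusted limma p of 0.0651 and 0.0927, so a lack of overlap was no sign of a large difference. FHL2, ATP6V0E1, TNFRSF25, MFGE8 and LOC101928985 were named after their values were seen.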

How the data were processed

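The authors deposited log2 values of 54675 probe sets, credited to RMA in the submitters' processing notes, with 2 decimals; whether all arrays were normalized together is not given in the sources used here. Symbols came from the platform annotation, which names 1 gene for 41097 probe sets, several for 1801 and is silent on 11777. The probe set of highest mean was used per gene, and means under 4.459 were left out, leaving 13634 of 19775 genes. All 36 arrays were fitted in limma 3.58.1 under R 4.3.3, with a mean for each of 6 groups and a random block per animal (correlation 0.151), so week 4 arrays added to the estimate of spread. P-values are two-sided, adjusted by Benjamini-Hochberg over all genes, with a threshold of 0.05. Errors are SE from this fit unless marked SD. The label of control animal 1 gives the high carbohydrate diet at week 4, unlike the other animals.

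Pairing rests on the animal identifiers: over 500 genes, baseline and week 12 arrays of an animal had deviations from their group means that correlated by 0.155 to 0.679, and 10 of 12 baseline arrays were closest to their own animal. The number of arrays limits the precision. The fit was tested on simulated data. The text names CROT, OASL, fixed lipid genes, the 8 genes of smallest p in each direction, and up to 4 members of smallest p per list. Members and lists were chosen with earlier results of these data known, and no list was tested as a set. Alternatives covered the block, probe sets, filter, normalization, moderation, RNA quality, single animals and 1 array; 0 columns were unused.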

Additional observations from a re-analysis of the deposited data

Results flagged for a closer look

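In 6 of the 90 sets of 6 animals examined (24 genes, 20 lists and the RNA integrity value in each arm), 1 animal's change from baseline to week 12 lay far from the other 5; chance gives this in about 1 in 20 sets. KIT changed by -0.69 in control animal 5 and by -2.11 to -1.62 in the other control animals. PIN4 changed by -0.55 in anti-miR-33 animal 4 and by -0.14 to -0.04 in the others of its arm. CD8B changed by 0.19 in anti-miR-33 animal 6 and by -0.16 to -0.11 in the others. The median of the acute phase genes changed by 0.74 in anti-miR-33 animal 4, against 0.00 to 0.20. The median of the hepatocyte markers changed by -0.56 in control animal 5, against -0.02 to 0.14, and by 0.24 in anti-miR-33 animal 4, against -0.03 to 0.07. Control animal 5 and anti-miR-33 animal 4 accounted for 5 of the 6. These 2 animals also had the largest fall of their arms in the RNA integrity value, that is in 3′ excess, at -0.975 and -1.62. Its part in the flagged values was not tested.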

How the results depend on the processing

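Limma called 0 genes in the main analysis and under all 23 alternatives, among them 1 chosen after seeing the data, a fit of only the baseline and week 12 arrays with 406 genes at an unadjusted p under 0.05. That count was 299 in the main analysis, 326 with the animal as a fixed replicate block, 171 with no replicate block, and 171 with the filter at the upper quartile, where fewer genes were tested. It ran from 217 to 583 when 1 animal was left out, with 583 without anti-miR-33 animal 1 and 455 without control animal 5; the cause was not tested. The block changed no call. CROT ran from 0.38 to 0.50 and OASL from -0.81 to -0.48 over the animals left out. Genes near 0 changed sign, and the cause was not tested: CPT1A was -0.08 (-0.085) with all its probe sets averaged and -0.24 to 0.30 over the animals left out. SREBF2 was 0.01 (0.00778) with probe sets averaged, 0.01 (0.0135) without the week 12 array of control animal 5, and -0.06 (-0.062) to 0.03 (0.0297) over the animals left out. FASN was 0.01 (0.0122) without that array and -0.72 to 0.55 over the animals left out. With 6 animals an arm, differences under about 2 SE (1.21-fold for a typical gene) could not be told from the spread. Larger ones were not called after adjustment either, such as KIT at 1.95-fold with an adjusted limma p of 0.999.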

Other observations

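The control arm held 2 animals whose livers moved unlike the other 4. In control animals 2 and 6 the median change of the fatty acid synthesis genes was -0.14 in both, against 0.38 to 1.32 in the others, and SREBF1 changed by -0.01 and 0.14, against 1.93 to 3.23. FASN changed by -0.93 and -1.63 in these animals and by 1.92 to 3.49 in the other 4. In the same animals the immediate early genes had median changes of 0.91 and 0.89, against -0.11 to 0.06, and RSAD2 changed by 0.37 and 0.33, against 0.96 to 1.74. Under anti-miR-33, animal 1 had lower values of lipid synthesis genes at week 12 than at its own baseline, with a median change of -0.27. SREBF1 changed by -1.10, FASN by -1.90 and FOS by -2.17 in this animal. Its baseline levels of these genes, at 7.81, 11.24 and 8.48, were the highest of all animals. Its week 12 levels, at 6.71, 9.34 and 6.31, lay within the range of the others of its arm. These animals were picked out after their values were seen, and no comparison between them was tested.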
